A study of Bos taurus with 2 samples.

Results

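Blood transcripts of 9 genes that carry or hold back programmed cell death were compared between Holstein cattle that use feed poorly and well: the death receptor gene FAS, its ligand gene FASLG, the adaptor gene FADD, the initiator caspase gene CASP8, its inhibitor gene CFLAR, the survival genes BCL2, BCL2L1 and MCL1, and the pore-forming gene BAX. Their probes were found by the gene name on the array or by the gene of the RefSeq transcript that a probe is assigned to, which gave 19 of 43653 distinct probes for 9 of the 16959 genes named on the array. Of these, 15 lay above background on both arrays, 1 lay above it in low feed efficiency only, and 3 lay below it on both. Of all 43096 probes kept, 21998 lay above background on both arrays. The shares above it were 56.5% in low and 52.7% in high feed efficiency.

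Total RNA of whole blood (Bos taurus) was read in 1 colour, Cy3, on an Agilent bovine array design: 1 array held a specimen from low feed efficiency (high residual feed intake, that is, eating more than body size and production call for), and 1 held a specimen from high feed efficiency (low residual feed intake). They are called the low-efficiency and the high-efficiency array here. The number of animals behind a specimen, their age and any treatment are not given in the sources used here. With 1 array per group no difference has a replicate check, a test or a p-value, and the number of arrays limits the precision. Signals are Cy3 intensities after subtraction of the negative control background, and a scaled intensity is that value divided by the 75th percentile of its array, 98 on the low-efficiency and 81 on the high-efficiency array. Differences are log2 values of the scaled intensity, low minus high feed efficiency. The limit for a signal above background was an intensity of 10.9, the median of the negative controls plus 3 robust SDs.

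Cells can be told to die from outside or from within. From outside, FASLG, carried mainly by cytotoxic T cells and natural killer cells, binds FAS on a target cell, FADD links the clustered receptors to CASP8, and CFLAR resembles CASP8 but lacks its protease activity and holds it in check. From within, BCL2, BCL2L1 (Bcl-xL) and MCL1 keep the mitochondrial outer membrane closed, while BAX opens it; neutrophils, short-lived and abundant in blood, rely on MCL1 to survive.

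FAS and CASP8 had the largest positive differences of the 9 genes, 0.82 and 0.63 by the brightest probe. MCL1 and BCL2 were moderately higher in low feed efficiency, at 0.32 and 0.25. BAX, BCL2L1 and FADD lay lower, at -0.34, -0.29 and -0.26, and FASLG and CFLAR were close to 0. In whole blood a change in the number of cells of a type cannot be told apart from a change in RNA per cell. The median over the 9 genes was 0.14, against -0.04 over all 10338 genes with a value. It was negative with normexp correction (-0.04), which also takes the pixel mean of a spot in place of the pixel median, and without background subtraction (-0.07). With the pixel mean alone it was 0.01. Of the 9 genes 6 lay above the median of all genes and 3 below, and none was 2-fold apart by its brightest probe, where 0.368% of all genes were 2-fold higher and 0.571% 2-fold lower. Scaling on spike-in controls, which added 0.36 to every difference, took FAS past 2-fold, at 1.18.

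By probe, 1 of the 15 was at least 2-fold higher in low feed efficiency, a CASP8 probe, against 0.464% of the 21998 probes above background on both arrays. None was 2-fold lower, against 0.577% of all probes. At 1.5-fold, 4 probes were higher (3.18% of all probes) and none was lower (3.43% of all probes). Of these 4, 3 belong to CASP8 and share its transcripts, so they count as 1 gene, and the fourth is the FAS probe.

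**Figure D1:**
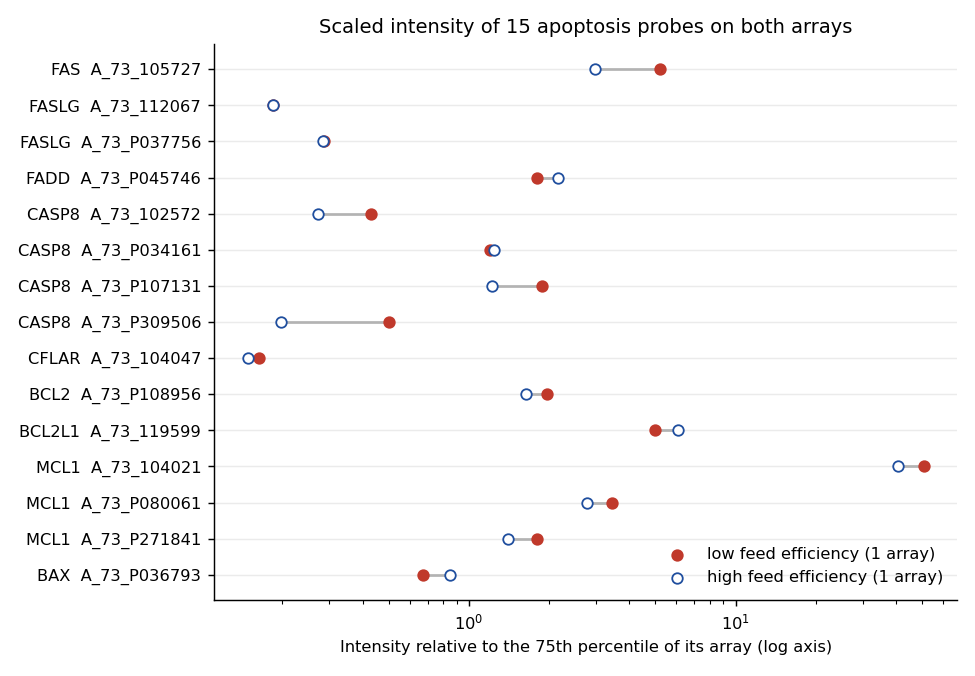
Scaled intensity of the 15 probes above background on both arrays (log axis), 1 row per probe, with filled points for the low and open points for the high feed efficiency array. The widest gaps are those of a dim CASP8 probe (0.50 against 0.198) and the FAS probe (5.21 against 2.96), while both FASLG probes coincide.

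The error of a single spot was read from spike-in RNA, which was measured on 32 spots per sequence and array. The SD over spots of the log2 difference was 0.10 for the spike-in with medians of 444 on the low-efficiency and 478 on the high-efficiency array. It was also 0.10 at 133 and 144, and 0.21 at 63 and 66. Over replicate spots of bovine probes the SD was 0.16 for 17 bright and 0.23 for 18 dim probes. These values cover spot and position error within this pair of hybridisations and leave out labelling, the blood draw and the animals.

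FAS had 1 probe (A_73_105727), which read 511 on the low-efficiency and 240 on the high-efficiency array, or 5.21 and 2.96 after scaling. The difference of 0.82 (1.76-fold) exceeded the spot SD of 0.10 for spike-ins of like brightness and that of 0.16 for bright bovine probes. Among all probes it stood at percentile 99.0. In its own signal bin (1 of 10 bins of equal size by mean signal, 2200 probes) the middle 95% ran from -0.51 to 0.46 and 0.318% of probes lay higher. The spot was flagged good by the scanner software in low and left unflagged in high feed efficiency, where its pixels had an SD of 118, against 115 on the brighter spot. The pixel mean gave 0.69 in place of 0.82 (493 against 256), and with only spots flagged good FAS had no value. Across the 13 alternatives that measured it FAS ran from 0.67 with normexp to 1.18 with spike-in scaling. Of the probes in that bin 2.23% were good in low but not in high feed efficiency, and their median difference was -0.0050. Of the 165 probes in the bin not flagged good on at least 1 array, 1.21% were 2-fold higher. Of those flagged good on both arrays 0.147% were. The part of the missing flag in the FAS value was not tested. Among its neighbours on the slide, up to 12 spots away on each side, the median difference was 0.03.

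FASLG had 3 probes. The brightest, A_73_P037756, read 28 on the low-efficiency and 23 on the high-efficiency array, and after scaling 0.286 and 0.284, a difference of 0.01. The second, A_73_112067, read 18 and 15, a difference of -0.01, and the third, A_73_P098761, read 8 and 3, below background on both arrays. Both measured probes of the ligand gene thus differed by less than the replicate-spot SD of 0.23 for dim bovine probes. In the signal bin of the brightest probe the middle 95% of probes ran from -0.72 to 0.79. Its sign changed under 7 of 14 alternatives for the brightest probe. FAS minus FASLG, from which any scaling factor of an array drops out, was 0.81, and 0.68 to 0.91 across the 13 alternatives that measured both.

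FADD, the adaptor between the receptor and CASP8, was read by 1 probe (A_73_P045746) at 177 on the low-efficiency and 175 on the high-efficiency array. The raw signals were nearly equal and only scaling set them apart, to 1.81 and 2.16, a difference of -0.26. With normexp background correction it was -0.04, and scaling on spike-in controls turned it to 0.10. In its signal bin the middle 95% ran from -0.52 to 0.52.

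CASP8 was read by 4 probes, all above background on both arrays and all assigned to the same RefSeq transcript, and they did not give one answer. The brightest, A_73_P107131, read 185 on the low-efficiency and 99 on the high-efficiency array, or 1.89 and 1.22 scaled, a difference of 0.63. A_73_P034161 read 118 and 101, or 1.20 and 1.25 scaled, a difference of -0.05. Both were flagged good on both arrays. The gap of 0.68 between them exceeded the replicate-spot SD of 0.16 for bright bovine probes, which applies to 1 probe and is larger for a gap. The first lay above the middle 95% of its signal bin (-0.55 to 0.59), and the second lay near its centre.

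The other CASP8 probes were dim and were unflagged in high feed efficiency. A_73_P309506 read 49 on the low-efficiency and 16 on the high-efficiency array, a difference of 1.34 (2.53-fold), and is the only probe of the 15 past 2-fold. It fell below 2-fold with normexp correction (0.31) and without background subtraction (0.64), and had no value with a stricter background filter or with only spots flagged good. A_73_102572 read 42 and 22, a difference of 0.66, which was 0.03 with normexp and 0.32 with the pixel mean. In their signal bin 8.09% of probes were flagged good in low but not in high feed efficiency, and the median difference of those probes was 0.31, against 0.04 for probes flagged good on both arrays. The part of this in both values was not tested.

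The range over the 4 CASP8 probes was 1.39. Of 472 genes with 4 probes above background, 1.06% had a wider range, and the median range was 0.38. In the array's annotation the 3 probes with a positive difference list a CASP8 cDNA record that A_73_P034161 does not list. All 4 probes share the other transcripts named for CASP8 and another cDNA record. Each lists only 4 records, so a record absent from a list does not show that the probe misses it. Where the probes lie along the transcript was not analysed here. In the bovine gene table of ARS-UCD2.0, the span of CASP8 overlaps that of another gene, FLACC1, as those of FAS, BCL2L1 and BAX overlap LOC132343936, LOC107133075 and TULP2. CFLAR is close by CASP8 on the same chromosome with 1 gene between them.

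**Figure D2:**
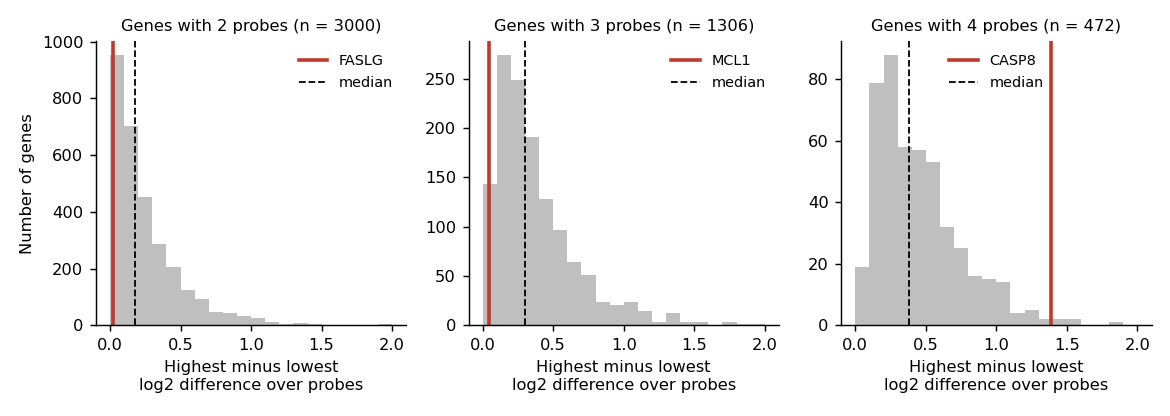
Number of genes by the range of the log2 difference over their probes, for genes with 2, 3 and 4 probes above background (ranges above 2 are drawn at 2), with the median dashed and 1 gene marked in red in each panel. CASP8 (1.39) lies in the far tail, whereas MCL1 (0.04) and FASLG (0.02) lie at the narrow end.

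CFLAR, the brake on CASP8, was barely above background: its probe A_73_104047 read 16 on the low-efficiency and 12 on the high-efficiency array, a difference of 0.14. The sign turned with normexp (-0.11), without background subtraction (-0.07) and with the pixel mean (-0.05). CASP8 minus CFLAR by their brightest probes was 0.49, and 0.35 to 0.73 across 12 alternatives.

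MCL1 was read alike by 3 probes. Its probe A_73_104021 read 4967 on the low-efficiency and 3296 on the high-efficiency array, a difference of 0.32 (1.25-fold). A_73_P080061 read 336 and 224, a difference of 0.31, and A_73_P271841 read 176 and 114, a difference of 0.35. All 3 probes were higher in low feed efficiency, over signals that spanned a wide range, and all were flagged good on both arrays. The range over them was 0.04, and 97.4% of 1306 genes with 3 probes had a wider one. They lay farther apart under some alternatives. In the same order they had 0.46, 0.33 and 0.35 with quantile normalization, and 0.46, 0.35 and 0.33 with normexp. In the signal bin of the brightest probe the middle 95% ran from -0.61 to 0.38 and 3.86% of probes lay higher. Across 14 alternatives the brightest probe ran from 0.30 to 0.68, the last with spike-in scaling.

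BCL2, the founding survival gene of the family, was read by 1 probe (A_73_P108956) at 192 on the low-efficiency and 133 on the high-efficiency array, a difference of 0.25. It stayed positive in all 14 alternatives, between 0.19 and 0.62, and lay inside the middle 95% of its signal bin (-0.52 to 0.52). BCL2L1 differed from both: its probe A_73_119599 read 487 on the low-efficiency and 493 on the high-efficiency array, or 4.97 and 6.09 scaled, a difference of -0.29. That value turned to 0.07 with spike-in scaling. Its other probes read 13 against 6 (A_73_P100546), above background in low feed efficiency only and too near it to bound a fold, and -2 against 3 (A_73_P330086), below background on both arrays.

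BAX, which forms pores in the mitochondrial outer membrane, was read at 66 on the low-efficiency and 69 on the high-efficiency array by A_73_P036793, or 0.673 and 0.852 scaled. Its difference of -0.34 was the lowest of the 9 genes and lay inside the middle 95% of its signal bin (-0.56 to 0.60). It turned to 0.02 with spike-in scaling, and a second probe, A_73_P213382, read 9 and 4, below background on both arrays. Between genes, where the scaling of the arrays drops out, MCL1 minus BAX was 0.66 and ran from 0.50 to 0.80 across 14 alternatives. BCL2 minus BAX was 0.59 (0.31 with normexp, at most 0.62), and BCL2L1 minus BAX was 0.05 with either sign across alternatives. MCL1 and BCL2 thus stood higher relative to BAX in low feed efficiency under every alternative run, and BCL2L1 did not. Alternatives that only rescale an array or filter other spots return the same contrast by construction. The rest reprocess the same spots, so these ranges are no replicate check.

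**Figure D3:**
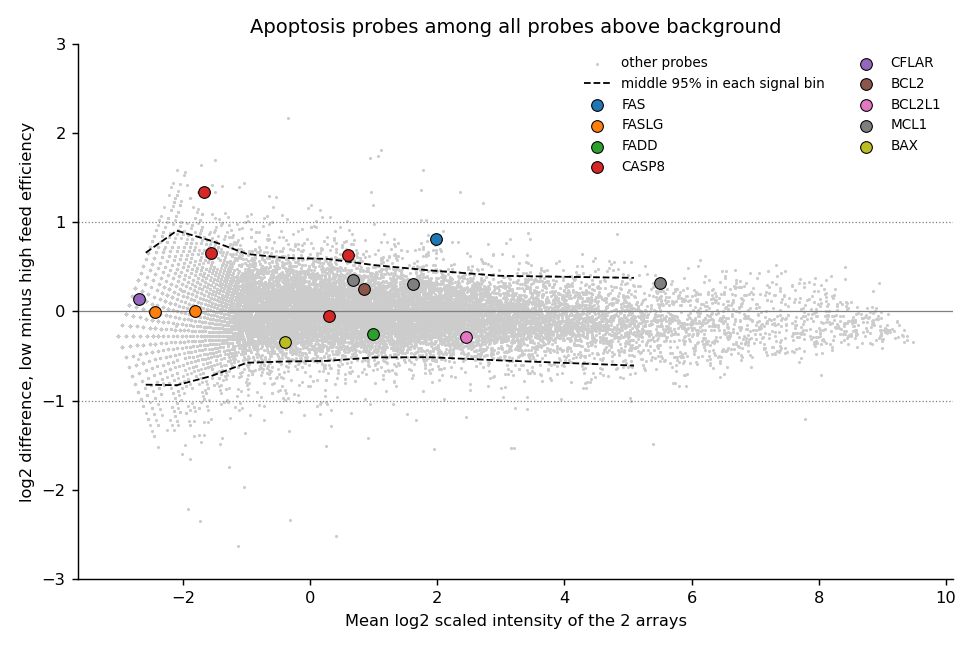
Difference (log2, low minus high feed efficiency) against mean log2 scaled intensity for all 21998 probes above background on both arrays (grey), the middle 95% in each signal bin (dashed) and the 15 probes of the 9 genes (coloured); dotted lines mark 2-fold, and 5 probes lie outside the plotted range. The FAS probe and 2 of the CASP8 probes lie above the dashed band, and the other coloured points lie inside it.

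**Figure D4:**
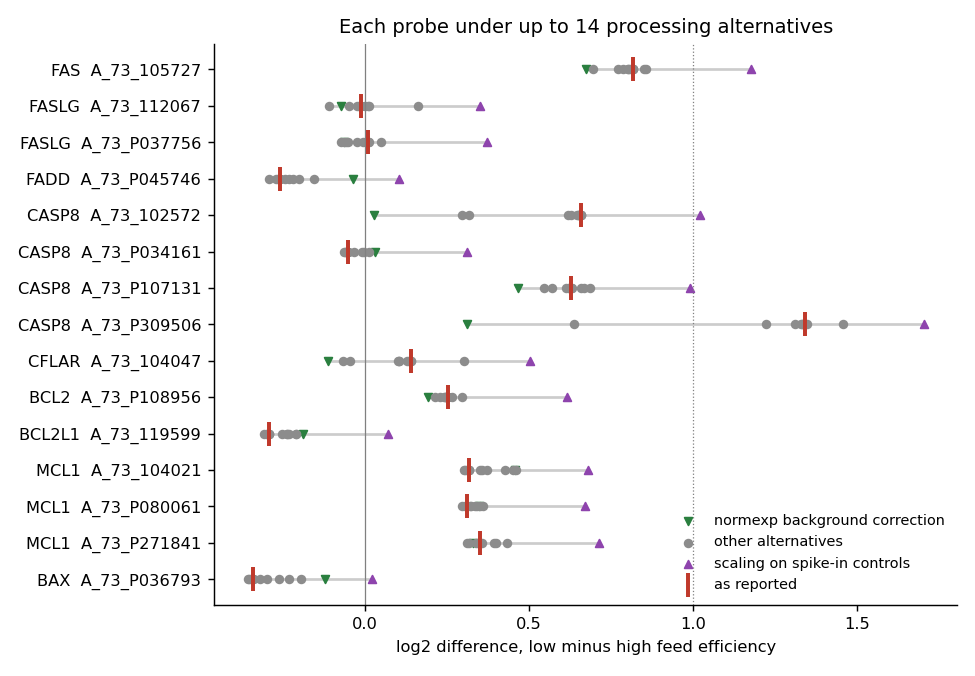
Difference (log2, low minus high feed efficiency) of each probe as reported (red bar) and under up to 14 alternatives (points), with the line at 0 and a dotted line at 2-fold. Spike-in scaling moves every probe up by 0.36, and all 3 MCL1 probes stay between 0.30 and 0.71. Normexp draws the dim CASP8 probes towards 0, as its offset does to dim probes by construction.

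The rest of the apoptosis machinery was described with a list of 52 other genes, of which 46 were on the array by name and 39 had a value. None was 2-fold apart by its brightest probe, 20 lay above the median of all genes and 19 did not, and their median was -0.04, the same as that of all genes. The genes named here are those with the highest and lowest difference in each role.

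Of the other death receptors and ligands 8 of 10 had a value, with 5 above the median of all genes and a list median 0.25 above it (0.02 with normexp). TNFRSF10A, a receptor for the death ligand TRAIL, read 69 on the low-efficiency and 42 on the high-efficiency array, a difference of 0.44 (0.17 with normexp). TNFRSF21, or death receptor 6, read 64 on both arrays, a difference of -0.27 that turned to 0.09 with spike-in scaling, and its other probe had 0.02. Of adaptor and signalling genes 9 of 10 had a value and 3 lay above the median of all genes. TRAF2, an adaptor of TNF receptors, had 0.39 at 27 against 17 (0.04 with normexp), and FAIM2, an inhibitor of FAS-induced death, had -0.69 at 12 against 16, near background (-0.23 with normexp).

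Among caspases and the proteins that carry out death, 10 of 12 genes had a value and 6 lay above the median of all genes. DFFB, the nuclease that cuts DNA between nucleosomes, read 88 on the low-efficiency and 53 on the high-efficiency array, a difference of 0.46 with a second probe at 0.67 (0.24 with normexp for the brightest). ENDOG, a mitochondrial nuclease, read 569 and 660, a difference of -0.49 (-0.13 with spike-in scaling).

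Within the BCL2 family, 4 of 8 BH3-only genes, the sensors that trigger the pore formers, had a value. BBC3 (PUMA) had -0.35 at 339 against 357, and BCL2L11 (BIM) had 0.02 at 208 against 169. The pore former BAK1, the closest counterpart of BAX, read 662 on the low-efficiency and 671 on the high-efficiency array, a difference of -0.29 with its other probe at -0.22, and BOK had -0.07. BBC3, BAK1 and BOK turned positive with spike-in scaling, at 0.01, 0.07 and 0.29. BCL2A1, the other survival gene with a value, read 433 and 283, a difference of 0.34 with its second probe at 0.32, close to the MCL1 value. BCL2A1 kept its sign in all 14 alternatives.

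Inhibitor of apoptosis genes and their antagonists had a value for 5 of 7, 4 of them above the median of all genes. DIABLO, a mitochondrial protein that relieves caspases of these inhibitors, read 523 on the low-efficiency and 335 on the high-efficiency array, a difference of 0.37 with a second probe at 0.40. BIRC5 (survivin), a gene of dividing cells, read 21 and 22, a difference of -0.34, which was 0.02 with spike-in scaling.

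**Figure D5:**
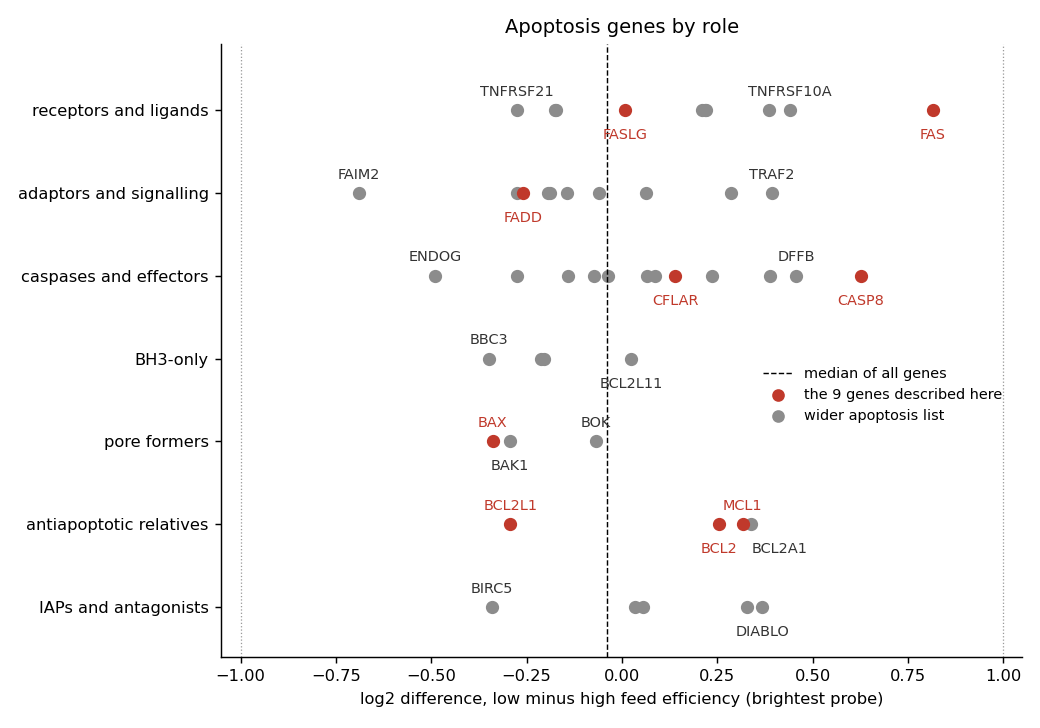
Difference (log2, low minus high feed efficiency, brightest probe) of the 9 genes (red) and 39 genes of the wider list (grey) by role, with the median of all genes dashed, dotted lines at 2-fold, and names for the 9 genes and for the highest and lowest wider gene of each role. No gene reaches a dotted line; FAS (0.82) and CASP8 (0.63) lie farthest right and FAIM2 (-0.69) farthest left.

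Blood cell markers were present on both arrays: above background were 8 of 8 neutrophil, 6 of 6 T cell, 6 of 6 B cell, 6 of 6 monocyte, 5 of 6 natural killer and cytotoxic, 4 of 5 erythroid and 4 of 5 platelet markers. Without a value were the natural killer receptor gene KLRD1 (10 against 1) and the red cell anion exchanger gene SLC4A1 (4 against 8), both below background, and GP9, which was not on the array by name. Of the neutrophil markers 6 of 8 lay above the median of all genes, with a list median 0.14 above it and summed scaled intensities of 910 on the low-efficiency and 809 on the high-efficiency array. The calgranulin gene S100A12 carried 498 and 427 of these sums, and without it they were 411 and 383. All 5 measured cytotoxic markers lay below it, with a list median of -0.25 relative to all genes and sums of 122 and 154, or 60.1 and 84.0 without the granzyme gene GZMB. T cell and B cell markers had medians of -0.09 and -0.06 relative to all genes (0.02 and 0.01 with normexp). Monocyte and platelet markers had medians of -0.17 and -0.21 relative to all genes. Both kept that sign in all 13 alternatives, though those that only rescale an array cannot change it. Of the 6 monocyte markers 2 lay above the median of all genes. These were LYZ, at a difference of 0.32 (11367 against 7550), and CD163, at 0.11 (17 against 13). The monocyte receptor gene CSF1R had -0.86 (1475 against 2214) and FCN1 had -0.41. Monocyte sums were 298 on the low-efficiency and 341 on the high-efficiency array, or 145.5 and 137.3 without FCN1. The erythroid list median was -0.08 relative to all genes (0.05 with normexp). Of its 4 measured markers 2 lay above the median of all genes. ALAS2, a heme synthesis gene of red cell precursors, was the only marker past 2-fold, at -1.42 (112 against 248). The globin genes HBA and HBB went the other way, at 0.13 (26648 against 20058) and 0.26 (6549 against 4517), and AHSP had -0.36. Summed over the 4 markers, scaled intensities were 341 on the low-efficiency and 308 on the high-efficiency array, or 68.9 and 60.1 without HBA. CSF1R, LYZ, CD163, FCN1, ALAS2, HBA, HBB, S100A12 and GZMB were chosen after their values were seen. The part of these cell types in the values of FAS, FASLG, MCL1 and BCL2 was not tested.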

How the data were processed

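Both arrays lay on 1 slide and in 1 scan, per the file headers. The deposited intensity values (linear, Cy3) come from a GenePix 4000B scanner and GenePix Pro version 6.1.0.4, with the negative control background subtracted and no normalization, per the file headers. Agilent Feature Extraction is named in the submitters' processing notes. The deposited percent of saturated pixels was 0 for all member probes, and the deposited flag score is 100 (good), 0 (unflagged) or -50 (not found). Spots flagged not found although bright were left out (408 in low, 283 in high feed efficiency). Intensities were divided by the 75th percentile and taken to log2, and a gene was represented by the brightest of its probes that both arrays detected. The authors' deposited log2 table, of unstated normalization, matched the scanner values after a shift of 1 row (Spearman's rho 1.00 for both arrays, 0.077 and 0.072 before it) and served as an alternative. Probes were named by RefSeq accession or symbol through the ARS-UCD2.0 gene table. limma 3.58.1 in R 4.3.3 gave normexp (offset 50), quantile and loess alternatives. Normexp started from the mean over the pixels of a spot, where the main values used the median. Its offset pulls differences of dim probes towards 0 by construction. Scripts were tested on simulated data. The 9 genes, the wider list and the markers were chosen with earlier results of these data known.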

Additional observations from a re-analysis of the deposited data

How the results depend on the processing

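The median over the 9 genes (0.14) was -0.036 with normexp, -0.066 without background subtraction and 0.50 with spike-in scaling, and that of the wider list (-0.04) was 0.32 with spike-in scaling; both moved by less than the replicate-spot SD of bright probes (0.16) under the other alternatives. The count of 1 probe at least 2-fold higher became 0 with normexp, without background subtraction, with a filter of 5 robust SDs and with only spots flagged good, 2 with no filter on dim probes, 3 with spike-in scaling and 4 at 1.5-fold; no probe was 2-fold lower under any alternative run. Of 202 single-probe values under alternatives, 23 moved by more than the spot SD, 15 of them under spike-in scaling and 5 under normexp. Removal of the median of neighbouring spots, an alternative chosen after seeing the data, moved none. Over all probes the 2-fold counts were 102 higher and 127 lower, against 539 and 29 with spike-in scaling, 45 and 68 with normexp, 12 and 24 without background subtraction, 29 and 26 with only spots flagged good, 51 and 75 with 5 robust SDs, and 2788 and 2604 with no filter on dim probes. No paired analysis was possible because each group has 1 array, and for the same reason no array could be left out. Signal over background limits FASLG, CFLAR and the dim CASP8 probes most.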

Other observations

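CASP8 was not the only apoptosis gene whose probes disagreed. BIRC3, an inhibitor of apoptosis induced by NF-kappa-B, had 4 probes above background with differences from -0.17 to 0.95, and 0.33 at the brightest (1033 on the low-efficiency and 680 on the high-efficiency array). BIRC6 had 4 probes from -0.66 to 0.43. XIAP, which inhibits caspases directly, was above background in low feed efficiency only, at 16 against 0, and had 0.99 by another probe when spots flagged as not found were kept. Of the wider list LTA (16 against 9) was also above it in low only, and FAIM (9 against 17) and CASP2 (9 against 13) in high only. Over all probes kept, 56.5% lay above background in low and 52.7% in high feed efficiency. TNFSF10, the gene of the ligand TRAIL, read 98 on the low-efficiency and 62 on the high-efficiency array, a difference of 0.39 with its other probe at 0.17. BIRC3, BIRC6, XIAP, LTA, FAIM, CASP2 and TNFSF10 were chosen after their values were seen.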
